A study of Mus musculus with 12 samples.

Results

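Fibroblasts of mouse ankle and wrist synovium were compared between serum transfer arthritis (STA) and health. They were the cells that the authors' filtered cell table places in 1 of 5 fibroblast classes, named Mmp3+, Il6+, Pi16+, Lining and Cd200+, in the healthy and STA hashtags of both fibroblast wells. These were 2372 of the 8042 cells in that table. Single-cell RNA was sequenced from 2 wells (10x, 3-prime), 1 per experiment, and antibody hashtags marked the condition of each cell within a well. Experiment 1 gave 408 healthy and 943 STA fibroblasts. Experiment 2 gave 268 healthy fibroblasts, 283 from a hashtag called mild STA and 470 from one called severe STA. All 5 hashtags came from R5 x R26tdTomato mice aged 8 to 10 weeks with the genotype Il5 wt/Cre; R26 tdTom/tdTom, so the healthy mice carried the same alleles and no group lacked Cre. Cre is driven there from the Il5 locus and marks cells with a history of Il5 expression, not fibroblasts. Viable CD45- GR-1- cells were sorted. The series' design text speaks of animals told apart by their hashtags, while the protocol speaks of 4 animals pooled per well that holds 3 hashtags. How many animals stand behind a hashtag is therefore unknown, and p-values measure the spread between 5 hashtags.

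Synovial fibroblasts build the matrix of the joint capsule and line its cavity. Lining cells secrete lubricin (Prg4), and Pi16+ cells resemble a fibroblast state found around vessels and in connective tissue of many organs. Serum transfer arthritis is an inflammation of the joint started by autoantibodies in donor serum, in which fibroblasts release chemokines that draw neutrophils, and proteases that degrade matrix. A change summed over all fibroblasts can come from cells moving between classes, from altered RNA levels within a class, or from both. Each change below is therefore given over all fibroblasts and again with Il6+ and Pi16+ cells at equal weight, where the 2 classes give the same number of unique molecular identifiers (UMIs, each standing for 1 captured RNA molecule) in each hashtag. The authors' classes rest on the same RNA, so a cell whose levels change can also be moved to another class; within these data the 2 kinds of change cannot be told apart for such cells.

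Fibroblast UMIs summed to between 3103104 and 16592635 per hashtag, and median UMIs per cell were 7557.5 and 10818.5 in the healthy hashtags against 14558.5 to 17021 in the STA hashtags. No fibroblast barcode was shared between the wells. Ddx3y, which is encoded on the Y chromosome, stood at 0.17 counts per 1000000 UMIs (CPM) in the mild STA hashtag and at 41.7 to 59.0 in the other 4. Xist, which is expressed from the inactive X chromosome of females, was at 815 in mild STA and at 243 to 531 in the other 4. Those 4 thus held RNA of both sexes, and so of more than 1 animal, while mild STA held almost only that of females. Sex was not a term in the tests, and its part in the results was not tested. All 9 fibroblast markers were detected. The 4 leukocyte markers summed to between 0.904 and 11.2 CPM, and 11 fibroblasts held a UMI of Ptprc, which encodes CD45. Summed markers of tendon cells were at 413 and 357 CPM in healthy and at 1802, 1117 and 1468 in STA hashtags, those of osteoblasts at 307 and 122 against 71.1, 106 and 60.3, and those of adipocytes at 17.8 and 9.35 against at most 1.19. Those of chondrocytes were at 199 and 276 against 443, 401 and 511, those of endothelial cells at 39.4 and 49.6 against 11.8, 17.0 and 25.9, and those of skeletal muscle at 51.7 and 53.8 against 22.3, 40.4 and 36.1. None of these 6 sums overlapped between the groups. The general fibroblast markers did not overlap either, at 32290 and 39200 against 51020, 53420 and 59370. Nor did the Pi16 fibroblast markers, at 2434 and 2628 against 961, 1188 and 2044. The other sums overlapped, such as pericytes and smooth muscle at 158 and 79.6 against 67.5 to 88.4. How often genes at large separate the groups this way was not counted, so no result about these cell types is drawn from it. Single members could oppose their sum: Chad of chondrocytes was at 85.9 and 123 against 14.3 to 63.4, and Runx2 of osteoblasts at 15.5 and 13.5 against 22.8 to 33.0. Tek alone gave 30.7 and 37.4 of the healthy endothelial sums, and was at 60.5 in Pi16+ cells. The part of these sums in the results was not tested. Pooled over the cells of a class, Mmp3 stood at 1432 CPM in Mmp3+, Il6 at 1988 in Il6+, Pi16 at 1969 in Pi16+ and Prg4 at 73280 in Lining cells. Cd200 was at 121 in Cd200+ cells. Each of these genes was higher in the class named for it than in the other 4 fibroblast classes, but not every marker was: Mt2 and Gpx3, listed as markers of Mmp3+ cells, were lowest there, at 1687 and 788, and Dkk2 was at 139 in Il6+ and 71.8 in Cd200+ cells. In what follows, values come first for the healthy hashtags of experiments 1 and 2, then for STA of experiment 1 and for mild and severe STA of experiment 2.

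Pi16+ cells were the largest class in health and Mmp3+ cells the largest in STA. Mmp3+ cells made up 2.45% (95% exact binomial interval 1.18 to 4.46) and 10.8% (7.37 to 15.2) of healthy fibroblasts, or 10 and 29 cells. They made up 69.5% (66.4 to 72.4), 49.1% (43.2 to 55.1) and 40.6% (36.2 to 45.2) of STA fibroblasts. Pi16+ cells made up 50.2% and 47.0% of healthy and 8.48%, 20.5% and 22.3% of STA fibroblasts. The groups did not overlap for Mmp3+, Pi16+ or Cd200+ cells, the last at 7.60% and 5.60% against 1.80%, 3.53% and 3.40%. Il6+ cells overlapped, at 27.7% and 34.3% against 14.5%, 22.3% and 29.6%, and so did Lining cells, at 12.01% and 2.24% against 5.73%, 4.59% and 4.04%. Shares within a hashtag add up to the whole, so a larger Mmp3+ share by itself lowers the shares of the other classes. Il6+ and Pi16+ cells numbered 113 and 205, and 92 and 126, in the healthy hashtags. In the STA hashtags they numbered 137 and 80, 63 and 58, and 139 and 105. Shares among the fibroblasts outside the Mmp3+ class were not tested. Averaged over the experiments, the share of Mmp3+ cells was 50.5 points higher in STA and the difference for Pi16+ cells was -33.7 points (both p = 0.167, two-sided exact permutation test within experiments). The difference was -10.8 points for Il6+ (p = 0.333), -3.96 for Cd200+ (p = 0.167) and -2.10 for Lining cells (p = 1.0) by the same exact permutation test, whose 6 arrangements allow no p below 0.167. Mmp3+ cells gave 5.25% and 14.4% of the healthy fibroblast UMIs and 80.2%, 68.2% and 59.0% of those in STA. Intervals cover counting error alone. The difference for Mmp3+ cells was 34.1 points without either hashtag of experiment 1, since the other has no partner then, and 67.0 points without the healthy hashtag of experiment 2. That for Lining cells turned to 2.08 points higher without either hashtag of experiment 1.

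**Figure D1:**
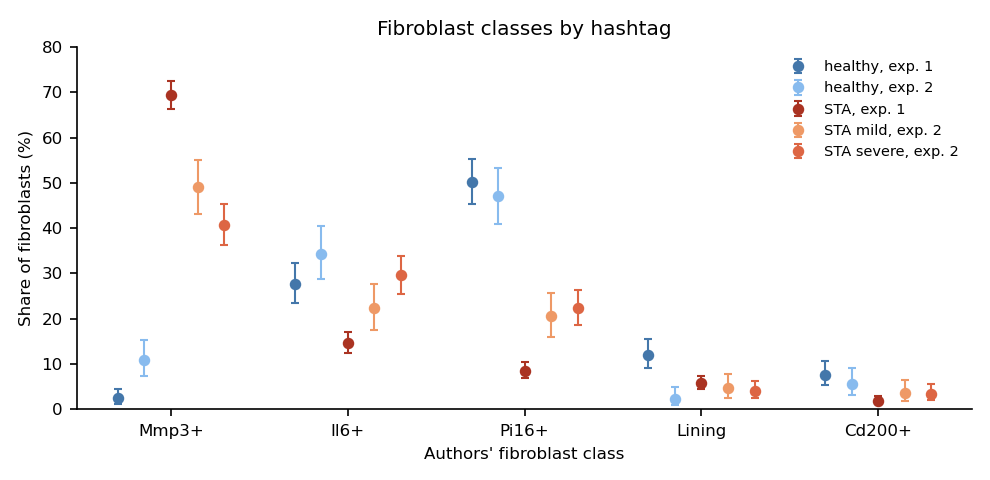
Share of each fibroblast class among the fibroblasts of a hashtag (%, points) with 95% exact binomial intervals (bars) for 2 healthy and 3 STA hashtags. Mmp3+ cells stand at 2.45% and 10.8% in health and at 40.6% to 69.5% in STA, and Pi16+ cells at 47.0% and 50.2% against 8.48% to 22.3%.

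Over all fibroblasts 2481 of 12200 genes (20.3%) differed between STA and health, 1276 higher (10.5%) and 1205 lower (9.88%) in STA, by edgeR's quasi-likelihood test with experiment as a term and a Benjamini-Hochberg adjusted p under 0.05. At equal class weights 148 of 9865 genes (1.5%) did, 82 higher (0.831%) and 66 lower (0.669%). Depth is lower in the second sums, so all fibroblasts were also thinned to the same UMIs per hashtag: 1666 of 9998 genes differed then. With the Mmp3+ class left out, and the other 4 classes at their own shares, 120 of 11178 genes differed. Taken alone, Il6+ cells gave 199 of 7946 genes (2.5%), 110 higher (1.38%) and 89 lower (1.12%). Pi16+ cells gave 68 of 9137 (0.744%), 37 higher (0.405%) and 31 lower (0.339%). Leaving out a hashtag moved the count in Il6+ cells between 229 (severe STA) and 444 (mild STA), and that in Pi16+ cells between 2 (STA of experiment 1) and 320 (mild STA). Without the experiment term, which stands for the shared well, 583 genes differed over all fibroblasts and 2 at equal weights. Leaving out a hashtag moved the first count between 841 (healthy of experiment 1) and 2113 (mild STA), with 865 without STA of experiment 1. It moved the count at equal weights between 52 (healthy of experiment 1) and 410 (mild STA), with 56 without STA of experiment 1. Of the 104 genes picked by the naming rule that were called over all fibroblasts, 25 lost the call without the healthy and 25 without the STA hashtag of experiment 1, 14 without the healthy hashtag of experiment 2, and 7 and 11 without mild and severe STA. Of the 46 called at equal weights these numbers were 27, 27, 11, 0 and, with 45 tested, 7. Without either hashtag of experiment 1 the other has no partner, so only experiment 2 gives a difference. Where an adjusted p without 1 hashtag is printed beside a gene, it is the largest of its 5 leave-outs.

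The genes called over all fibroblasts and tested at equal weights, which were picked by the first value and share every hashtag with the second, numbered 2224. Of these, the 1073 higher genes had a median log2 change of 0.79 over all fibroblasts and 0.41 at equal weights, and the 1151 lower genes medians of -0.84 and -0.37. A second split divides the difference in CPM between each STA hashtag and the healthy hashtag of its experiment over all 5 classes. It weights each class by its share of fibroblast UMIs, not of cells, so its class-share part also holds differences in UMIs per cell. There the median share of the difference that came from class shares was 43.1% for higher and 49.8% for lower genes in STA of experiment 1. It was 48.9% and 45.5% in mild and 40.9% and 35.3% in severe STA. The gene groups below differ widely from these medians. Counts of called genes per list are to be read beside the shares over all genes tested, 20.3% over all fibroblasts and 1.5% at equal weights. Near the first share lay interferon response (4 of 20 called), respiratory chain (4 of 18), ADAMTS (2 of 9) and Il6 family genes (2 of 12). So did MHC class I, heat shock and prostaglandin genes (3 of 11 each). Such counts do not set these families apart from other genes. List counts at an unadjusted p under 0.05 need a background of their own, from the same edgeR test over all genes. At equal weights 1377 of 9865 genes (13.96%) had such a p, and over all fibroblasts 4358 of 12200 (35.7%).

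Cxcl5 had the largest rise over all fibroblasts among the genes named here and also differed at equal weights. Genes named by size, Cxcl5 among them, had to differ the same way in each STA hashtag from the healthy hashtag of its experiment. Cxcl5, a ligand of the neutrophil receptor Cxcr2, stood at 30.7 and 28.0 CPM in healthy fibroblasts and at 961, 613 and 554 in STA. Every STA hashtag was far above both healthy ones. Its log2 change was 4.67 (SE 0.19, adjusted p = 0.000428) over all fibroblasts and 3.46 (SE 0.23, adjusted p = 1.06e-05) at equal weights, where it was called in all 5 leave-outs. In Il6+ cells Cxcl5 went from 57.0 and 71.3 to 847, 998 and 636 CPM. In Pi16+ cells it was at 19.6 and 5.64 against 85.7, 24.6 and 6.82, higher in each STA hashtag than in the healthy hashtag of its experiment, with a log2 change of 1.87 that missed the threshold (SE 0.42, adjusted p = 0.0644). Mmp3+ cells held it at 1101, 683 and 718 in STA. Of 11 CXC chemokines tested, 2 were higher and 2 lower over all fibroblasts, and 2 higher and 0 lower at equal weights, with medians of 0.19 and 0.48. Cxcl1, another Cxcr2 ligand, fell by 0.59 over all fibroblasts (adjusted p = 0.00991, called in 2 of 5 leave-outs and at 0.0577 without STA of experiment 1) and had a log2 change of -0.46 at equal weights (adjusted p = 0.132).

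Cxcl14 was called at equal weights and not over all fibroblasts. This chemokine of resting connective tissue stood at 668 and 644 CPM in healthy fibroblasts and at 704, 1103 and 990 in STA, a log2 change of 0.45 that missed the threshold (SE 0.16, adjusted p = 0.0869). At equal weights it was at 973 and 763 against 2052, 1499 and 1434, a log2 change of 0.96 (SE 0.13, adjusted p = 0.00454). It rose both in Il6+ cells (1.05, adjusted p = 0.00275) and in Pi16+ cells (0.72, adjusted p = 0.0432). Mmp3+ cells, with 475, 963 and 767 in STA, lay below the Il6+ cells of the same hashtags at 3060, 1936 and 1883.

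CC chemokines moved in both directions over all fibroblasts. Ccl2, which draws monocytes through Ccr2, fell from 2183 and 2403 CPM to 1086, 1040 and 1150, a log2 change of -1.06 over all fibroblasts (adjusted p = 0.0021) and -0.72 at equal weights (adjusted p = 0.0207). The second call was lost without the healthy hashtag of experiment 2 (adjusted p = 0.165). Ccl20, the ligand of Ccr6, went from 1.46 and 1.29 to 41.7, 25.7 and 9.67 CPM over all fibroblasts, a log2 change of 4.42 (SE 0.67, adjusted p = 0.00713), with adjusted p = 0.101 without the healthy hashtag of experiment 1. Ccl9, a mouse chemokine of myeloid cells, rose by 3.36 (adjusted p = 0.00395). Both were too low in Il6+ and Pi16+ cells to be tested at equal weights. Of the CC chemokines, 3 were higher and 2 lower of 9 tested over all fibroblasts, and 0 higher and 1 lower of 6 at equal weights.

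Acute phase genes gave 3 higher of 9 over all fibroblasts and 1 higher of 7 at equal weights. Haptoglobin (Hp) rose from 168 and 81.9 CPM to 1106, 759 and 259, and Saa3, an acute phase protein made outside the liver in mice, from 252 and 75.4 to 1069, 504 and 204. Their log2 changes over all fibroblasts were 2.69 (adjusted p = 0.00938) and 2.18 (adjusted p = 0.0103), and at equal weights 0.86 (adjusted p = 0.308) and 0.37 (adjusted p = 0.376). Hp kept its call in 3 of 5 leave-outs and Saa3 in 2, with adjusted p = 0.0767 and 0.0756 without STA of experiment 1. The Saa3 groups overlapped over all fibroblasts. In Mmp3+ cells, which the equal-weight sum leaves out, Saa3 was at 106 and 181 in health, from 19 and 81 UMIs. It was at 1278, 693 and 282 there in STA. Hp overlapped in Mmp3+ cells, at 2004 and 409 against 1271, 1064 and 380. Pooled over hashtags, Saa3 went from 552 to 41.8 in Lining cells. Lcn2, which binds bacterial siderophores, gave 1.25 (adjusted p = 0.024) and 1.14 (adjusted p = 0.00982), and the second had adjusted p = 0.209 without STA of experiment 1 and a log2 change of -0.032 with the 5 classes at their mean UMI shares. In Mmp3+ cells Lcn2 was at 573 and 22.4 in health, from 103 and 10 UMIs, and at 103, 103 and 91.9 in STA. Slpi, a secreted inhibitor of neutrophil elastase that is not on the acute phase list, went from 13.1 and 41.6 to 557, 283 and 255 CPM. Its log2 change was 3.73 (SE 0.56, adjusted p = 0.00685). At equal weights its log2 change was 0.26 (SE 0.48, adjusted p = 0.868). Slpi was at 601, 378 and 369 in Mmp3+ cells of STA, against at most 5.25 in Il6+ cells of the same hashtags.

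Genes of the NF-kB pathway, through which tumour necrosis factor and interleukin 1 act, and which switches on its own inhibitors, were lower in STA where they passed the test in either sum. Of 17 tested, 8 fell and 0 rose over all fibroblasts, and 2 fell and 0 rose at equal weights, with medians of -0.44 and -0.20. In Il6+ cells alone 3 fell and 0 rose, and in Pi16+ cells alone 0 fell and 1 rose, Steap4 (1.03, adjusted p = 0.0308), which is named after its values were seen. Tnfaip3, the inhibitor A20, stood at 212 and 210 CPM in health and at 77.4, 103 and 98.7 in STA. It fell by 1.22 over all fibroblasts (adjusted p = 0.00254) and by 0.86 at equal weights (adjusted p = 0.0204, and 0.163 without the healthy hashtag of experiment 1). Nfkb1, a subunit of the factor, had log2 changes of -0.84 (adjusted p = 0.00395) and -0.68 (adjusted p = 0.0288, and 0.176 without that hashtag). Tnfaip2 fell by 1.12 over all fibroblasts (adjusted p = 0.00389) and had a log2 change of -0.89 at equal weights (adjusted p = 0.0953). Icam1, bound by leukocyte integrins and counted with the adhesion molecules below, fell from 480 and 555 to 108, 206 and 180 CPM. Its log2 change was -1.78 (SE 0.16, adjusted p = 0.00188) over all fibroblasts and -1.11 (SE 0.15, adjusted p = 0.00566) at equal weights, and it was called in every leave-out of both. In Il6+ cells Icam1 went from 1024 and 1146 to 356, 476 and 498, while in Pi16+ cells the groups overlapped, at 343 and 199 against 222, 304 and 153. The stress score per cell in the authors' table had medians of 0.936 and 0.446 in healthy and -0.0085, 0.282 and 0.349 in STA fibroblasts; its part in these results was not tested. Of 18 immediate early genes, which cell dissociation also induces, 6 fell and 1 rose over all fibroblasts, among them Klf4 (-0.92, adjusted p = 0.00662) and Atf3 (-0.76, adjusted p = 0.00792). At equal weights 0 fell and 1 rose, the factor Egr2 (1.31, adjusted p = 0.00767, and 0.0523 without the healthy hashtag of experiment 2).

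Matrix-cleaving proteases and their inhibitors were mostly higher in STA over all fibroblasts. Of 10 matrix metalloproteinases and TIMPs, 7 were higher and 1 lower over all fibroblasts, and 4 higher and 0 lower at equal weights, with medians of 1.45 and 0.84 against 0.02 and 0.01 for all genes tested. Timp1, an inhibitor of metalloproteinases, stood at 566 and 354 CPM in health and at 2326, 1479 and 1300 in STA. No STA hashtag overlapped a healthy one. Its log2 change was 2.02 (SE 0.11, adjusted p = 0.000584) and 1.11 (SE 0.15, adjusted p = 0.00564), called in every leave-out of both. Mmp3 (stromelysin 1) went from 367 and 223 to 1356, 1225 and 818, a log2 change of 2.08 (SE 0.20, adjusted p = 0.00242) over all fibroblasts and 1.28 (SE 0.24, adjusted p = 0.02) at equal weights, with adjusted p = 0.115 without the healthy hashtag of experiment 2. Within Mmp3+ cells, the class named for it, Mmp3 stood at 1759 and 832 CPM in health and at 1552, 1397 and 1180 in STA, where the groups overlapped. In Il6+ cells it was at 436 and 210 against 1038, 899 and 419, also overlapping between experiments but higher in each STA hashtag than in the healthy hashtag of its experiment. Mmp23 rose by 1.53 (adjusted p = 0.00131) and 0.98 (adjusted p = 0.0377, and 0.33 without the healthy hashtag of experiment 1).

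The start regions of Mmp3 and Tnfaip3 are shown because the 2 genes moved in opposite directions in both sums and hold the motif of AP-1, a factor that drives metalloproteinase genes. They run from 250 bases before to 50 after the start and come from RefSeq (GRCm38.p6). Capitals mark the AP-1 motif TGANTCA, searched on both strands. Both sequences are read 5′ to 3′ on the gene's strand, chr9:7445572-7445871 (+) for Mmp3 and chr10:19015361-19015660 (-) for Tnfaip3.
Mmp3: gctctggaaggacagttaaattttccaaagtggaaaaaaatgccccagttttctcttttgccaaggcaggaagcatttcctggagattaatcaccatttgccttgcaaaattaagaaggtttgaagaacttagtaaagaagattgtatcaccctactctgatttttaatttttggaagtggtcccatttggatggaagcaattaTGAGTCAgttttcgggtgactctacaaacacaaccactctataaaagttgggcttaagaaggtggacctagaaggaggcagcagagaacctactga
Tnfaip3: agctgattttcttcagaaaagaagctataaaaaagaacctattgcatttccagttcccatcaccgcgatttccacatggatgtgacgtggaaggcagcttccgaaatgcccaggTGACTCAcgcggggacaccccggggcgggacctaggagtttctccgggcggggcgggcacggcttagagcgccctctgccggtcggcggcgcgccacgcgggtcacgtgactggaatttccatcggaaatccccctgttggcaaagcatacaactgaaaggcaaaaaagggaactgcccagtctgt
Mmp3 holds 1 AP-1 motif, beginning at position -46, and Tnfaip3 holds 1 at -136. A second start region of Tnfaip3 in the same table holds none. Of all 32851 start regions, 7.81% hold the motif. By the equal-weight result, 4 of 58 start regions of higher genes (6.90%) and 6 of 48 of lower genes (12.5%) hold it. Among those of all genes tested there it is 485 of 7829 (6.19%). The 2 genes shown were picked for holding the motif, so their matches say nothing about why they moved. A match is a stretch of letters, not a measured site.

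Collagens were mostly higher in STA over all fibroblasts. Of 15 collagens, 8 were higher and 1 lower over all fibroblasts (median 0.85), and 0 were called by edgeR at equal weights (median 0.54), where 10 had an unadjusted p under 0.05 and DESeq2 called 1. Col1a1, the main chain of collagen I, stood at 3245 and 6825 CPM in health and at 12748, 17521 and 19146 in STA, a log2 change of 1.67 (SE 0.14, adjusted p = 0.00168). At equal weights it was at 3262 and 6625 against 9845, 5833 and 10728, where mild STA lay below the healthy hashtag of its experiment (0.80, SE 0.27, adjusted p = 0.186). Col1a2 gave 1.15 (adjusted p = 0.00332) and 0.64 (adjusted p = 0.213). Col12a1, a collagen that binds fibrils, gave 1.98 (adjusted p = 0.000584) and 0.83 (adjusted p = 0.168). Col12a1 stood at 504, 544 and 603 CPM in Mmp3+ cells of STA and at 56.4 to 79.9 in their Il6+ cells.

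Matricellular genes, which shape the matrix without being structural, gave 12 higher and 1 lower of 18 over all fibroblasts (median 1.36), and 4 higher and 1 lower at equal weights (median 0.57). Periostin (Postn) rose from 533 and 571 CPM to 2099, 1926 and 2357, by 1.95 (adjusted p = 0.000625) and 1.29 (adjusted p = 0.00921). Tenascin C (Tnc) rose from 71.9 and 55.1 to 436, 413 and 376, by 2.75 (adjusted p = 0.000498) and 2.02 (adjusted p = 0.0121). Cthrc1, a protein of activated matrix-making fibroblasts that is not on the list, rose from 74.8 and 49.0 to 984, 493 and 622, by 3.62 (adjusted p = 0.000434) and 3.05 (adjusted p = 0.008). Without the healthy hashtag of experiment 1, adjusted p at equal weights became 0.1 for Postn, 0.216 for Tnc and 0.159 for Cthrc1. In Pi16+ cells Cthrc1 went from 44.9 and 13.4 to 704 in STA of experiment 1 but to 38.4 and 122 in mild and severe STA. Ccn3, a matricellular protein that other members of its family oppose, fell from 336 and 549 to 56.0, 132 and 115, a log2 change of -2.32 (adjusted p = 0.000584) and -1.47 (adjusted p = 0.00291), and was called in every leave-out. Small leucine-rich proteoglycans, which coat collagen fibrils, split into 4 higher and 5 lower of 10 over all fibroblasts and 2 and 2 at equal weights. Decorin (Dcn) fell from 16958 and 15651 to 7148, 6886 and 8134 CPM, a log2 change of -1.12 (adjusted p = 0.00167) and -0.50 (adjusted p = 0.0257, and 0.201 without severe STA). Ecm2 had -1.45 (adjusted p = 0.000906) and -0.72 (adjusted p = 0.0418, and 0.271 without the healthy hashtag of experiment 1). Biglycan (Bgn) rose by 1.26 over all fibroblasts (adjusted p = 0.000966) and had a log2 change of 0.54 at equal weights (adjusted p = 0.0678).

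**Figure D2:**
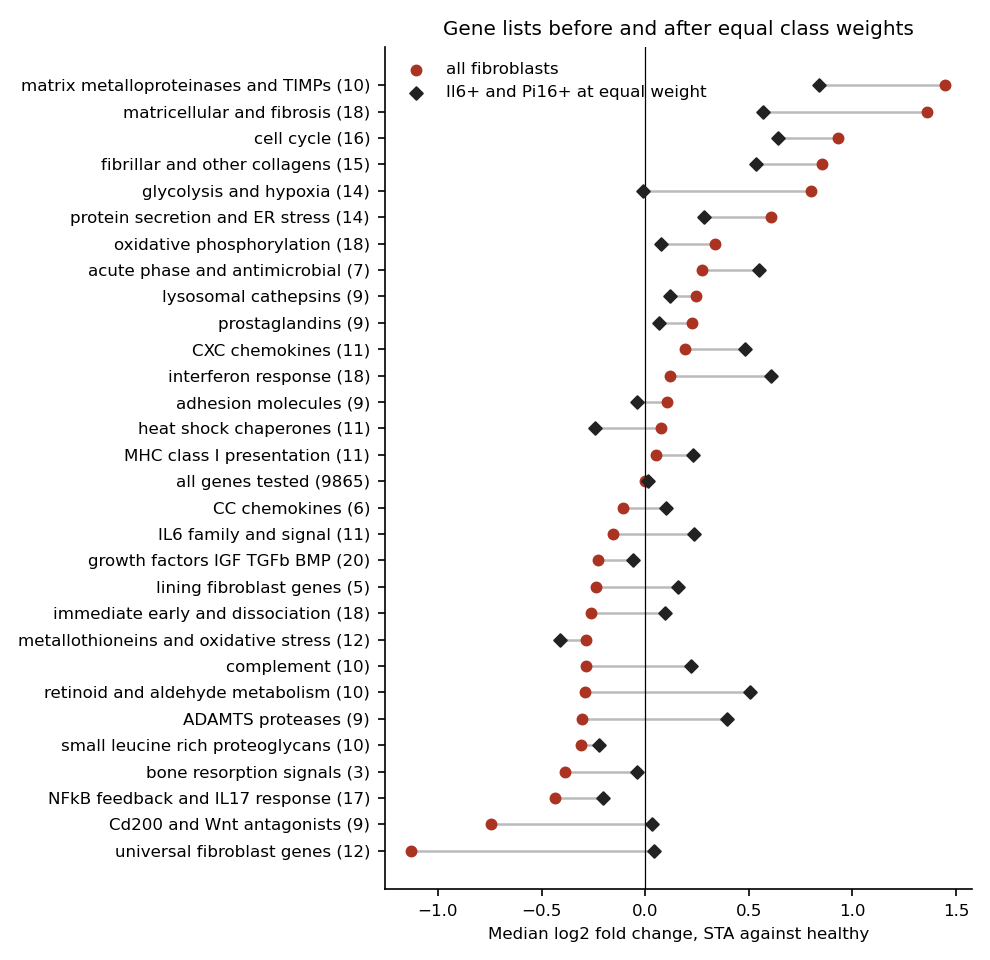
Median log2 fold change of STA against healthy for each gene list (rows, with the number of genes tested in both sums) over all fibroblasts (circles) and with Il6+ and Pi16+ cells at equal weight (diamonds). Universal fibroblast genes move from -1.13 to 0.04 and glycolysis and hypoxia genes from 0.80 to -0.01, while metalloproteinases and TIMPs go from 1.45 to 0.84.

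Genes of the Pi16+ and universal fibroblast state showed the largest gap between the sums. Of 12, 10 fell and 0 rose over all fibroblasts, with a median of -1.13. At equal weights 0 were called by edgeR or DESeq2, with a median of 0.04, and 6 had an unadjusted p under 0.05. Cd34, a surface sialomucin of these cells, stood at 713 and 823 CPM in health and at 206, 255 and 376 in STA, a log2 change of -1.54 (SE 0.18, adjusted p = 0.00369). At equal weights it was at 911 and 880 against 688, 705 and 749, a log2 change of -0.37 (SE 0.13, adjusted p = 0.197). Ly6c1 gave -1.30 (adjusted p = 0.00408) and -0.19 (adjusted p = 0.559), and Col15a1, a basement membrane collagen, -1.12 (adjusted p = 0.00424) and 0.18 (adjusted p = 0.657). Pi16 itself, a secreted peptidase inhibitor, was at 927 and 993 against 379, 511 and 1047 over all fibroblasts (-0.75, adjusted p = 0.153). In Il6+ cells it rose from 490 and 754 to 1228, 1287 and 1594 CPM, by 1.01 (SE 0.17, adjusted p = 0.00663). The list is not independent of the classes: Pi16 names one of them, and Cd34 stood at 962, 944 and 993 in STA Pi16+ cells against 411, 457 and 504 in Il6+ cells.

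Glycolysis and hypoxia genes were the reverse case. Of 15, 10 rose and 1 fell over all fibroblasts (median 0.81), and 0 of 14 were called by edgeR or DESeq2 at equal weights (median -0.01), where 4 had an unadjusted p under 0.05. Pkm, the pyruvate kinase of the last step of glycolysis, stood at 250 and 208 CPM in health and at 527, 390 and 404 in STA, a log2 change of 1.01 (SE 0.11, adjusted p = 0.0029). At equal weights its change was 0.06 (SE 0.17, adjusted p = 0.924). Pkm was at 501 and 385 in healthy and at 568, 445 and 551 in STA Mmp3+ cells, and at 125 to 248 in STA Il6+ cells. Hif1a, the oxygen-regulated factor, gave 1.59 (adjusted p = 0.00183) and 0.80 (adjusted p = 0.0794), and Slc16a3, the lactate exporter, 1.85 (adjusted p = 0.0033) over all fibroblasts. Genes of protein secretion gave 7 higher and 1 lower of 14 over all fibroblasts and 0 at equal weights by edgeR or DESeq2, where 5 had an unadjusted p under 0.05. Their examples were the disulfide isomerases Pdia4 (1.00, adjusted p = 0.00349; then 0.51, adjusted p = 0.162) and Pdia6 (0.92, adjusted p = 0.00424; then 0.56, adjusted p = 0.132). Sec61b, of the channel into the endoplasmic reticulum, gave 1.07 (adjusted p = 0.00389) and 0.28 (adjusted p = 0.553). Respiratory chain genes gave 4 higher and 0 lower of 18, then 0 called by either tool and 1 with an unadjusted p under 0.05; Uqcrq, Ndufa4 and Cox7b rose by 0.50, 0.47 and 0.46 over all fibroblasts (adjusted p = 0.0228, 0.0303 and 0.0366), and were called in 2, 2 and 1 of 5 leave-outs, with adjusted p up to 0.106, 0.145 and 0.169 without the healthy hashtag of experiment 1.

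Complement C3 was likewise called at equal weights and not over all fibroblasts; the 2 sums share every hashtag, and their difference was not tested. C3, the centre of the cascade, was at 1303 and 1048 CPM in healthy and at 1078, 1322 and 1654 in STA fibroblasts. These groups overlap, and the log2 change was 0.18 (SE 0.19, adjusted p = 0.53). At equal weights C3 was at 2130 and 1356 against 3590, 2930 and 3289, a log2 change of 0.96 (SE 0.14, adjusted p = 0.00566), called in every leave-out. It rose in Il6+ cells from 2870 and 1732 to 4595, 3988 and 4070 and in Pi16+ cells from 1345 and 986 to 2556, 1871 and 2544 (adjusted p = 0.0124 and 0.0116). Mmp3+ cells held 700, 909 and 862 in STA. Cfb, factor B of the alternative pathway, rose by 0.61 (adjusted p = 0.0121, and 0.0708 without the healthy hashtag of experiment 2) and by 0.74 (adjusted p = 0.0346, and 0.313 without that of experiment 1). Cd55, which breaks up C3 convertases, fell by 1.59 over all fibroblasts (adjusted p = 0.00384) and had a log2 change of -0.27 at equal weights (adjusted p = 0.458). Of 12 complement genes 2 rose and 4 fell over all fibroblasts, and of 10 at equal weights 3 rose and 0 fell. Adamts5, the main aggrecan-cleaving protease in mouse cartilage, had a log2 change of -0.31 over all fibroblasts (adjusted p = 0.246). It rose by 0.67 at equal weights (adjusted p = 0.0352, and 0.157 without the healthy hashtag of experiment 1). Of 9 ADAMTS genes 0 rose and 2 fell, then 1 rose and 0 fell.

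**Figure D3:**
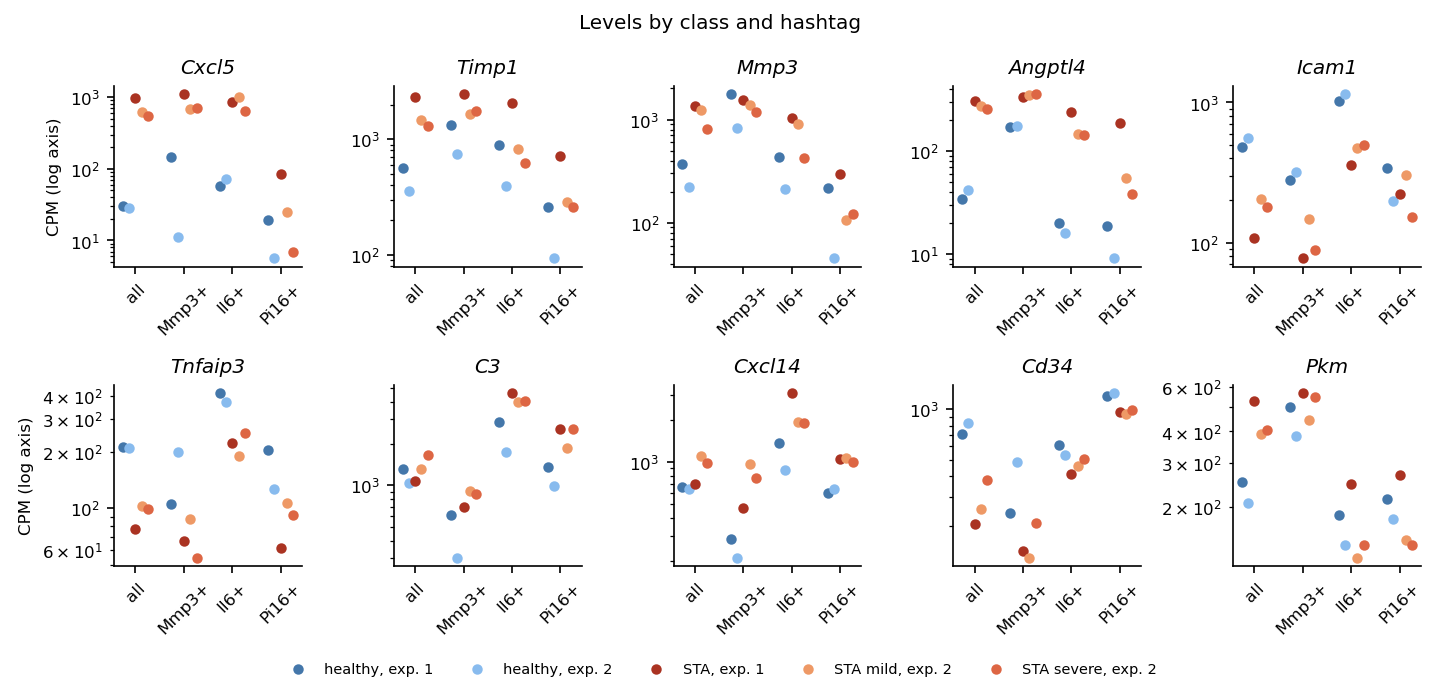
CPM (log axis) of 10 genes over all fibroblasts and in Mmp3+, Il6+ and Pi16+ cells, 1 point per hashtag. Cxcl5 of Il6+ cells stands at 57.0 and 71.3 in health and at 636 to 998 in STA; C3 overlaps over all fibroblasts but stands at 3988 to 4595 against 1732 and 2870 in Il6+ cells.

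The linear split, with classes weighted by their share of UMIs, gave the parts in CPM. For C3 in STA of experiment 1 the whole difference was -225, made of -835 from class shares and 611 from levels within classes. In mild and severe STA the share parts of C3 were -723 and -669 and the within-class parts 997 and 1274. For Cxcl5 the within-class part was the larger in all 3 STA hashtags, at 554 of 930, 504 of 585 and 410 of 526. For Pkm class shares gave 182 of 277, 152 of 182 and 145 of 196. For Cd34 they gave -382 of -507, -306 of -569 and -262 of -447. For Slpi, whose log2 change went from 3.73 to 0.26 between the sums, they gave 142 of 544, 135 of 242 and 104 of 213. The linear split also holds levels within Mmp3+, Lining and Cd200+ cells, which the equal-weight sum leaves out. Pooled over hashtags, Slpi went from 79.8 to 509 CPM in Mmp3+ cells and from 113 to 933 in Lining cells. The healthy side of the Mmp3+ class holds 10 and 29 cells.

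**Figure D4:**
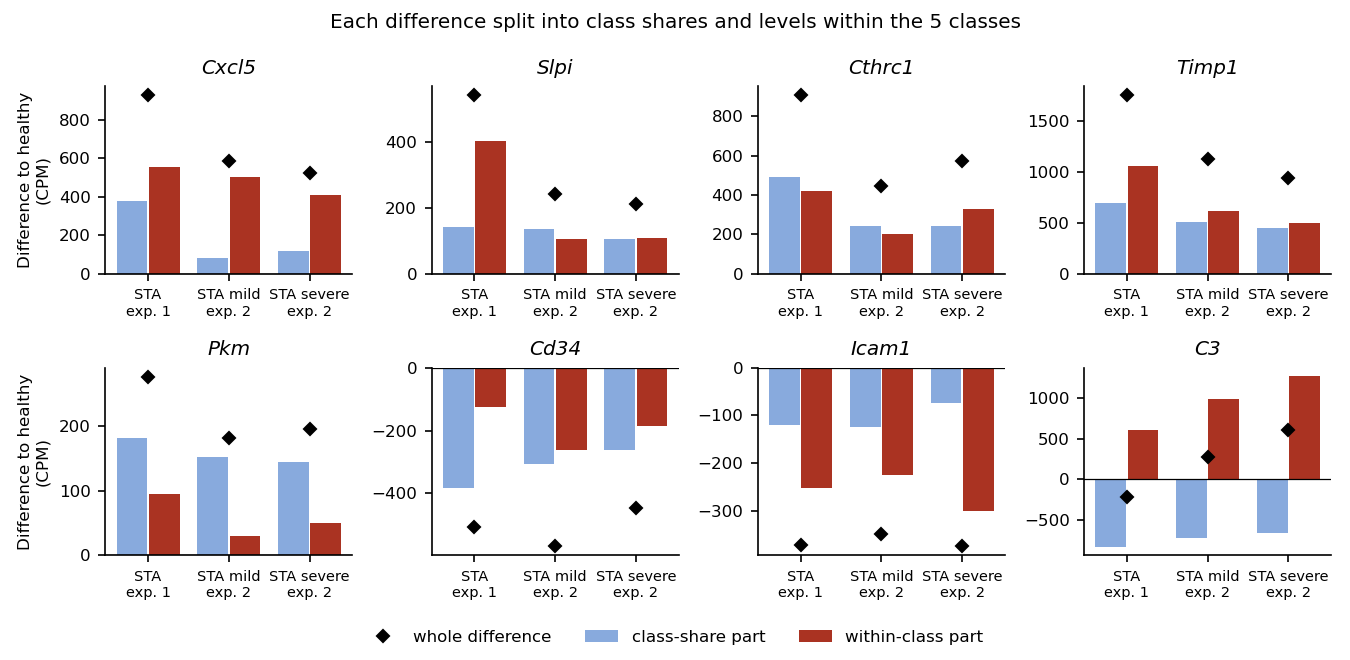
Difference of each STA hashtag to the healthy hashtag of its experiment in CPM (diamonds), split over the 5 classes into a class-share part (blue bars) and a within-class part (red bars) for 8 genes. Class shares are shares of fibroblast UMIs here. Both parts point the same way for 7 genes, and for C3 they oppose each other, with -835 and 611 in STA of experiment 1.

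Growth factors and their binding proteins gave 2 higher and 8 lower of 22 over all fibroblasts, and 2 and 2 of 20 at equal weights. Igfbp6, which binds insulin-like growth factor 2, fell from 1440 and 1974 to 448, 524 and 551 CPM, a log2 change of -1.78 (adjusted p = 0.000584) and -0.78 (adjusted p = 0.0106, and 0.114 without the healthy hashtag of experiment 2). Bmp4 and Bmp2, bone morphogenetic proteins, fell, with log2 changes of -1.87 and -1.25 over all fibroblasts (adjusted p = 0.00389 and 0.00673). At equal weights they had log2 changes of -0.52 and -0.75 (adjusted p = 0.329 and 0.192). Igfbp4, a binding protein counted with the Wnt antagonists below and not among these 22, rose from 918 and 747 to 2444, 2301 and 2221 CPM. It rose by 1.54 (SE 0.10, adjusted p = 0.000625) and 1.16 (SE 0.14, adjusted p = 0.00291), called in every leave-out. The Wnt antagonists moved in both directions: of the 9 genes of the Cd200+ class and Wnt antagonism 4 rose and 4 fell over all fibroblasts, and 2 rose and 1 fell at equal weights. Sfrp1 rose by 2.05 (adjusted p = 0.00163) and 0.97 (adjusted p = 0.0125, and 0.138 without the healthy hashtag of experiment 1). Sfrp4 fell by 1.15 (adjusted p = 0.0022), with -0.26 at equal weights (adjusted p = 0.633). Wif1 had -1.08 (adjusted p = 0.0402) and -1.65 (adjusted p = 0.0494), with 0.382 and 0.381 without the healthy hashtag of experiment 1. Cd200, a ligand that restrains myeloid cells, fell by 1.02 over all fibroblasts (adjusted p = 0.0314, and 0.156 without that hashtag), and Dkk3 rose by 1.28 (adjusted p = 0.00945, and 0.0709 without it). At equal weights their log2 changes were -0.24 and 0.03 (adjusted p = 0.73 and 0.979).

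Adhesion molecules gave 3 higher and 1 lower of 10, then 1 and 1 of 9. Cadherin 11 (Cdh11), which joins synovial fibroblasts to each other, rose from 64.3 and 61.6 to 216, 230 and 229 CPM, by 1.85 (SE 0.11, adjusted p = 0.000584) and 1.52 (SE 0.18, adjusted p = 0.00291), called in every leave-out. Podoplanin (Pdpn) rose by 0.79 over all fibroblasts (adjusted p = 0.0087, and 0.0531 without STA of experiment 1) and had 0.40 at equal weights (adjusted p = 0.389). Of 20 interferon response genes 2 rose and 2 fell, near the 20.3% called among all genes, then 1 rose and 0 fell of 18. Bst2 (tetherin) rose by 0.92 (adjusted p = 0.00389) and 0.99 (adjusted p = 0.0403, and 0.376 without the healthy hashtag of experiment 1). Irf1 and Gbp2 fell, with log2 changes of -1.26 and -0.98 over all fibroblasts (adjusted p = 0.0132 and 0.00511). At equal weights their log2 changes were -0.36 and -0.57 (adjusted p = 0.512 and 0.0972). Of 11 genes of antigen presentation by MHC class I, 3 fell and 0 rose over all fibroblasts, H2-Q4 (-0.87), H2-T23 (-0.51) and H2-D1 (-0.38), with adjusted p = 0.0196, 0.0353 and 0.0366. H2-Q4 was called in 3 of 5 leave-outs, H2-T23 in 1 and H2-D1 in 0, with adjusted p up to 0.12, 0.183 and 0.119. Without the Mmp3+ class H2-Q4 and H2-D1 had log2 changes of 0.10 and 0.11. At equal weights 0 of the 11 were called by edgeR or DESeq2, and 4 had an unadjusted p under 0.05.

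Among signals to bone, Tnfsf11, which encodes the osteoclast factor RANKL, went from 3.51 and 3.87 to 51.0, 73.4 and 42.6 CPM, a log2 change of 3.89 (SE 0.36, adjusted p = 0.0022) called in every leave-out. In Mmp3+ cells it stood at 60.2, 105 and 66.2 in STA, and in health at 33.4 and 24.6 from 6 and 11 UMIs. It was too low to be tested at equal weights. Csf1, the macrophage growth factor, fell by 1.17 over all fibroblasts (adjusted p = 0.00695), with -0.04 at equal weights (adjusted p = 0.943). Of 5 such genes 1 rose and 1 fell, then 0 of 3, with 0 at an unadjusted p under 0.05 and 0 by DESeq2. The Il6 family gave 1 higher and 1 lower of 12, then 0 of 11 by edgeR or DESeq2, with 6 at an unadjusted p under 0.05. Lif rose by 1.01 (adjusted p = 0.00793, and 0.0582 without the healthy hashtag of experiment 2), and the receptor Il6ra fell by 1.47 (adjusted p = 0.00541). Il6 itself was at 542 and 919 against 315, 821 and 685 CPM, overlapping groups with log2 changes of -0.48 (adjusted p = 0.0587) and -0.02 (adjusted p = 0.977). Prostaglandin genes gave 2 higher and 1 lower of 11, then 0 and 1 of 9. Ptgs2, the inducible cyclooxygenase, rose by 0.63 (adjusted p = 0.00779) with 0.51 at equal weights (adjusted p = 0.129), and Ptgis, prostacyclin synthase, had -1.32 (adjusted p = 0.00682) and -0.80 (adjusted p = 0.0401, and 0.43 without the healthy hashtag of experiment 2). Of 10 lining genes 0 were called over all fibroblasts by edgeR or DESeq2 and 2 had an unadjusted p under 0.05; at equal weights these numbers were 0 and 1 of 5. Prg4 stood at 23657 and 3386 against 6283, 8450 and 5832 CPM, beside 12.01% and 2.24% of Lining cells in the healthy hashtags.

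Cell cycle genes gave 12 higher and 0 lower of 18 over all fibroblasts (median 0.98) and 1 higher of 16 at equal weights (median 0.64). Ccnb2, a mitotic cyclin, went from 4.97 and 9.99 to 36.1, 31.3 and 27.7 CPM, by 2.13 (adjusted p = 0.00541) and 2.56 (adjusted p = 0.0413, and 0.253 without the healthy hashtag of experiment 2). The second value rests on 7 UMIs in health against 70 in STA. Cdc20 and Tubb5 rose by 1.59 and 0.76 over all fibroblasts (adjusted p = 0.00395 and 0.00558). Of 13 metallothionein and oxidative stress genes 2 rose and 5 fell, then 0 and 1 of 12; Mt1 and Mt2, which bind zinc, fell, with log2 changes of -1.01 and -0.87 over all fibroblasts (adjusted p = 0.00326 and 0.00516), with -0.44 and -0.38 at equal weights. Gclc, of glutathione synthesis, fell by 1.14 (adjusted p = 0.0032). Heat shock chaperones gave 2 higher and 1 lower of 11, then 0 by either tool, with 3 at an unadjusted p under 0.05. Cathepsins gave 2 higher and 1 lower of 9, then 0 by either tool and 2 at an unadjusted p under 0.05, with Lgmn at 0.87 (adjusted p = 0.00602), Ctsk at 0.60 (adjusted p = 0.0116, and 0.0577 without the healthy hashtag of experiment 2) and Ctsl at -0.37 (adjusted p = 0.0367, called in 0 of 5 leave-outs). Retinoid genes gave 3 higher and 2 lower of 10, then 1 and 0. Aldh1a2, which makes retinoic acid, rose from 23.7 and 32.2 to 70.5, 70.3 and 70.8, by 1.34 (adjusted p = 0.00304) and 1.495 (adjusted p = 0.00921, and 0.0686 without STA of experiment 1). Crabp2, which carries retinoic acid, rose by 2.23 over all fibroblasts (adjusted p = 0.00487), with 0.96 at equal weights (adjusted p = 0.459).

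Outside the lists, genes were named by size among those called. For these, each STA hashtag had to lie on the called side of the healthy hashtag of its experiment. Angptl4, a secreted inhibitor of lipoprotein lipase, rose from 34.8 and 42.5 to 308, 275 and 259 CPM, by 2.88 (SE 0.16, adjusted p = 0.000584) over all fibroblasts and 3.01 (SE 0.19, adjusted p = 1.06e-05) at equal weights. It rose in Il6+ cells from 20.4 and 16.3 to 239, 147 and 145 and in Pi16+ cells from 19.0 and 9.16 to 189, 55.3 and 38.4. Chl1, a neural adhesion molecule, rose by 3.18 (adjusted p = 0.000428) and 2.84 (adjusted p = 0.00291). The imprinted genes H19 and Mest rose by 3.16 and 2.98 over all fibroblasts (adjusted p = 0.000584 and 0.000623) and by 2.09 and 2.05 at equal weights (both adjusted p = 0.00566). These 4 genes were called in every leave-out of both sums. S100g, a calcium-binding protein, fell from 16.9 and 29.0 to 0.783, 0.51 and 0.955 CPM, a log2 change of -4.82 (SE 0.31, adjusted p = 0.000625). At equal weights its STA sums held 2 UMIs in all against 107 in health, so no fold is given there (adjusted p = 0.000108). Ddah1, which degrades an inhibitor of nitric oxide synthesis, rose by 3.62 (adjusted p = 0.00254) and 3.18 (adjusted p = 0.0288, and 0.673 without STA of experiment 1). The second value rests on 5 UMIs in health against 72 in STA. Chil1, a chitinase-like protein, rose by 3.33 over all fibroblasts (adjusted p = 0.00325), with 3.66 at equal weights (SE 1.23, adjusted p = 0.189). There it had 3 UMIs in health and 10, 1 and 71 in the STA hashtags. Lgi2 had 0.93 over all fibroblasts (adjusted p = 0.074) and rose by 2.11 at equal weights (adjusted p = 0.0401, and 0.162 without STA of experiment 1).

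Among the lower genes outside the lists, Scg3, a protein of secretory granules, fell from 112 and 95.7 to 2.17, 19.9 and 15.8 CPM, a log2 change of -3.62 (adjusted p = 0.00949) and -1.96 (adjusted p = 0.0372). Fmo2 and Aldh3a1, enzymes that oxidise foreign compounds and aldehydes, fell, with log2 changes of -3.38 and -3.04 over all fibroblasts (adjusted p = 0.00287 and 0.00378) and had -1.77 and -1.56 at equal weights (adjusted p = 0.0403 and 0.00921). Myocilin (Myoc) had -2.85 (adjusted p = 0.00323) and -1.03 (adjusted p = 0.0204), and Galnt15 had -2.79 (adjusted p = 0.00424) and -1.10 (adjusted p = 0.0174). Without the healthy hashtag of experiment 1 the equal-weight adjusted p of these 5 genes became 0.133, 0.245, 0.0653, 0.185 and 0.199. Pou2f2 and Stmn4 fell, with log2 changes of -3.80 and -2.86 over all fibroblasts (adjusted p = 0.0172 and 0.00273) and of -1.76 and -0.999 at equal weights (adjusted p = 0.129 and 0.0915). Chad, Angptl7 and Stmn2 fell, with log2 changes of -2.41, -2.17 and -2.04 at equal weights (adjusted p = 0.00921, 0.00953 and 0.008). Without the healthy hashtag of experiment 1 these became 0.074, 0.0986 and 0.209.

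The responses of Il6+ and Pi16+ cells were also tested against each other, with the hashtag as a block. Of 9315 genes 1 differed (0.0107%), Igfbp3, a carrier of insulin-like growth factors. In Pi16+ cells it went from 36.1 and 339 CPM to 4.45 in STA of experiment 1 and to 92.2 and 87.8 in experiment 2, a log2 change of -2.08 (SE 0.22, adjusted p = 0.000831). In Il6+ cells it was at 27.2 and 58.0 against 42.7, 81.2 and 79.9, a log2 change of 0.44 (SE 0.22, adjusted p = 0.354). In each experiment the STA hashtags were lower in Pi16+ and higher in Il6+ cells. The difference between the 2 responses was 2.51 (adjusted p = 0.00575), and it missed the threshold without the healthy hashtag of experiment 2 or without mild STA, with differences of 3.47 and 2.53. Leaving out 1 hashtag moved the number of such genes between 1 (mild STA) and 66 (severe STA). For Icam1 and Cxcl5 the differences between the 2 responses were -1.26 and 1.79 (adjusted p = 0.0977 and 0.138), so a difference between the classes was not shown for them.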

How the data were processed

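The authors deposited UMI counts per gene and cell, counted with Cell Ranger against mm10, and a table of the cells they kept. The matrices name version 6.1.2, per the file headers, and the submitters' processing notes name 6.0.6. That table gives each cell's hashtag call, its class, counts of UMIs and hashtag UMIs, the mitochondrial fraction of UMIs, and a stress score and hashtag margin score; the steps behind the deposited fraction, scores and classes are not given in the sources used here. Of the 2431 and 1120 cells it lists for the fibroblast wells, 2431 and 1117 matched a barcode. Its UMI total equalled the matrix total in 201 and 118 of them and was slightly lower in the others, and the matrix counts were used. Doublets were treated only by the authors' filter.

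UMIs of 32285 genes were summed per hashtag (2 healthy, 3 STA). For equal class weights the larger of the Il6+ and Pi16+ sums was thinned at random to the UMI total of the smaller (650576 to 1172971 UMIs per class) and both were added. Genes kept by filterByExpr were tested with edgeR 4.0.16 (R 4.3.3; TMM, quasi-likelihood, experiment as a term, 2 residual degrees of freedom, Benjamini-Hochberg adjusted p under 0.05) after a check on simulated data. Reads lie near the 3-prime end, so levels of different genes are not compared. The experiment pairs the hashtags because a well is shared. Deviations from the group means correlated at 0.275 to 0.443 within experiments, over 12200 genes. With 2 healthy hashtags their deviations are opposite by construction, so the values of -0.443 to -0.275 between experiments only mirror these. Deviations of the 3 STA hashtags cancel out as well, so the correlations do not test the pairing. Named genes were up to 8 per direction by size, up to 3 per list, and 8 fixed genes. Those picked by size had to be called, with at least 20 CPM (UMIs per 1000000 UMIs) in a group. Each STA hashtag also had to lie on the called side of the healthy hashtag of its experiment, so that agreement is set by the rule. Sex-linked, mitochondrial, ribosomal protein, immunoglobulin, T cell receptor and predicted genes were left out of this pick. The members and the 29 lists were chosen with earlier results of these data known. Alternatives were DESeq2 1.42.0, limma 3.58.1, other scaling, filters, weights and leave-outs; those added after the data were seen removed the Mmp3+ class, thinned depth, or removed cells with a blood cell UMI (4, 15, 17, 17 and 43 per hashtag). A hashtag of STA with Il23mc was not used in the comparisons.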

Additional observations from a re-analysis of the deposited data

Results flagged for a closer look

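Igfbp3 differed between Il6+ and Pi16+ cells in its response to STA. The difference of the 2 log2 changes, Il6+ minus Pi16+, was 2.51 (adjusted p = 0.00575 by edgeR over 9315 genes). It was called without either hashtag of experiment 1, whose Pi16+ STA cells held 4 UMIs of Igfbp3, and without severe STA. It was not called without mild STA (adjusted p = 0.0965) or without the healthy hashtag of experiment 2 (0.152). In Pi16+ cells the 2 healthy hashtags differed from each other, at 36.1 and 339 CPM (UMIs per 1000000 UMIs).

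The well of experiment 1 also held a hashtag of STA with Il23mc, which no comparison above uses. Mmp3+ cells made up 66.5% of its 953 fibroblasts, above the 2.45% and 10.8% of the healthy hashtags and beside 69.5% in STA of the same well. This is 1 hashtag, so it has no replicate.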

How the results depend on the processing

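All counts here are of genes with an adjusted p under 0.05, and the cause of each shift was not tested. Over all fibroblasts, 2481 genes became 583 with no replicate block, that is without the experiment that pairs the hashtags of a well, and 120 without the Mmp3+ class. At equal class weights, 148 genes became 300 with the 5 classes at their mean UMI shares, 93 by DESeq2, 50 with equal cells and UMIs per cell, 519 with no filter on low counts and 2 with no replicate block. In Il6+ cells 199 became 97 by DESeq2, 483 with no filter and 2 with no block. In Pi16+ cells 68 became 29, 280 and 0, the last with 532 genes at an unadjusted p under 0.05. For the difference between the 2 classes, 1 became 69 with no filter and 0 with no block, with 543 at an unadjusted p under 0.05. The other settings moved these counts by less than 1.5 times. Leaving out 1 hashtag gave 841 to 2113 genes over all fibroblasts, 52 to 410 at equal weights, 229 to 444 in Il6+ cells, 2 to 320 in Pi16+ cells and 1 to 66 for the difference. It moved the class share differences to 34.1 to 67.0 points for Mmp3+, -13.2 to -8.41 for Il6+, -41.8 to -25.6 for Pi16+, -6.28 to 2.08 for Lining and -5.80 to -2.13 for Cd200+ cells.

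Of the genes picked by the naming rule, 104 were called over all fibroblasts and 73 of them kept the call in every leave-out. At equal weights 13 of 46 did, DESeq2 did not call 17, and 44 were not called with no replicate block. Some log2 changes turned sign. Without the Mmp3+ class they were Adamts5 0.28, Adamts4 0.37, H2-Q4 0.10, H2-D1 0.11, Il6 0.30, Pi16 0.19, Prg4 0.58, Dkk3 -0.00636 and Thy1 0.10 over the remaining fibroblasts. At equal weights limma gave Slpi -0.35, Pkm -0.00694, Hspe1 -0.030, Dkk3 -0.10 and Pdgfra 0.017. Another random thinning gave Slpi -0.15 and Dkk3 -0.16. The 5 classes at mean shares gave Lcn2 -0.032, Adamts4 -0.11, Col15a1 -0.50, H2-Q4 0.078, H2-T23 0.038, Cdc20 -0.40 and Prg4 -0.18. Equal cells gave Saa3 -0.28, Adamtsl4 0.21, Csf1 0.067, H2-T23 0.30, H2-D1 0.014 and Pdgfra 0.17. With no replicate block the values were H2-Q4 0.027, Il6 0.11, Dkk3 -0.012 and Pdgfra 0.026. Hspe1 was at -0.00443 by DESeq2 and at -0.00054 with RLE factors, and Dkk3 at -0.21 without cells that held a blood cell UMI. Of these, Adamts4, H2-Q4, H2-D1 and Dkk3 over all fibroblasts and Lcn2 at equal weights were called before the change.

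Leaving out 1 hashtag turned the sign of uncalled genes. Over all fibroblasts Adamts5 ranged from -0.73 to 0.0039, C3 from -0.27 to 0.51 and Prg4 from -1.91 to 1.08. At equal weights the ranges were -0.59 to 2.17 for Crabp2, -0.25 to 0.39 for Dkk3, -0.16 to 0.039 for H2-D1, -0.50 to 0.13 for H2-Q4 and -0.27 to 0.38 for Hspe1. They were -0.30 to 0.18 for Il6, -0.97 to 0.072 for Irf1, -0.28 to 0.16 for Pdgfra, -0.21 to 0.40 for Pkm and -0.41 to 0.57 for Ptger4. They were -0.020 to 0.66 for Sec61b, -0.67 to 0.29 for Sfrp4, -0.26 to 0.51 for Slpi and -0.015 to 0.20 for Uqcrq. With 2 residual degrees of freedom and 650576 to 1172971 UMIs per class in the equal sums, a gene not called there is not shown to be unchanged.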
